A study of Coregonus lavaretus with 13 samples.

Results

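The contigs described here are 158 putative long non-coding RNAs (lncRNAs) of the liver of whitefish, Coregonus lavaretus, that were abundant in control fish and lower on days 6 and 9 of exposure to microcystin-LR (MC-LR). They were taken from 4729 contigs listed in at least 1 of 3 deposited tables, each of which holds the contigs that differed between exposed and control fish on day 1, 6 or 9. A contig was included if it was listed on days 6 and 9 but not on day 1, if its raw count averaged 500 reads or more over the 4 control fish, if its mean was lower in the exposed fish of both days, and if at least 1 read was counted in those 6 exposed fish. Of the 2075 contigs listed on both later days, 1618 were not listed on day 1, 1003 of these were lower on both days, and 158 of the 1003 reached the count of 500 reads. The counts of the control fish and of the exposed fish of days 6 and 9 thus chose these contigs, and their levels against the controls are given as a description, without a test.

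The fish were juvenile whitefish of the Rutki-strain. Control fish (PBS_1d, 4 fish) received an intraperitoneal injection of phosphate-buffered saline, the solvent of the toxin, and were sampled on day 1. Exposed fish received MC-LR at 100 μg/kg body mass and were sampled on day 6 (MC_6d, 3 fish) or on day 9 (MC_9d, 3 fish). The injection was repeated after 7 days, so that MC_9d fish were injected 2 times and MC_6d fish 1 time. Each library came from the liver of 1 fish. The groups were kept in separate tanks, and the PBS fish of day 1 were the only controls of both later days, so that exposure, time in the experiment and tank cannot be told apart. The contigs carry no gene name, so the liver label could not be checked against marker genes, and the non-coding label rests on the filters of the study. Values of exposed fish on day 1 are not analysed here, since the table of that day does not list these contigs.

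MC-LR is a cyclic peptide toxin of cyanobacteria that hepatocytes take up through organic anion transporters. Inside the cell it inhibits the serine/threonine protein phosphatases PP1 and PP2A, which leads to hyperphosphorylated proteins, a collapsing cytoskeleton and loss of hepatocytes. Long non-coding RNAs are transcripts without a long open reading frame, many of which are spliced and polyadenylated like mRNA, and many are expressed in 1 tissue or cell type more than in others. The libraries were prepared with an mRNA protocol, so polyadenylated transcripts were measured. In whole liver, fewer cells that express a transcript and less of it per cell cannot be told apart.

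Levels are given as normalized counts, that is, reads divided by the size factor of each library, which is meant to bring the libraries to 1 scale. The remaining level is the mean of an exposed group as a percent of the mean of the 4 PBS fish. The libraries held 660900 to 964543 reads on the 2075 contigs of both later tables. The size factors were 0.923 to 1.02 in PBS fish, 1.07 to 1.18 on day 6 and 1.39 to 1.53 on day 9. The clean reads of the libraries, relative to their geometric mean, were 0.941 to 1.06, 0.993 to 1.05 and 0.961 to 1.04 in these groups. The larger size factors of day 9 thus do not follow depth. Scaling by the clean reads of each library instead raised the median log2 ratio of the 158 contigs to PBS. It went from -4.09 to -3.96 on day 6 and from -3.51 to -2.94 on day 9. All 158 contigs were lower on both days by that scaling too. One exposed fish, MC_9d_3, stood apart from the other 2 fish of day 9 in many of these contigs. Several results that rest on it are given with and without it, and the other means of day 9 include it.

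Together the 158 contigs took 73.9 to 79.1% of the reads on the 2075 contigs in the PBS livers. They took 10.6, 10.7 and 4.63% in MC_6d_1, MC_6d_2 and MC_6d_3, and 7.61, 6.94 and 23.9% in MC_9d_1, MC_9d_2 and MC_9d_3. Their summed normalized count was 820964, 736730, 783955 and 559765 in PBS_1d_1 to PBS_1d_4. It was 59633, 72994 and 39437 in the fish of day 6 and 43475, 38031 and 112734 in those of day 9. Every exposed liver thus lay far below every control liver, and MC_9d_3 was the highest of the 6 exposed livers. The mean of the sums was 725353 ± 115650 (SD, n = 4) in PBS fish, 57355 ± 16894 (n = 3) or 7.91% of it on day 6, and 64747 ± 41647 (n = 3) or 8.93% on day 9.

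**Figure D1:**
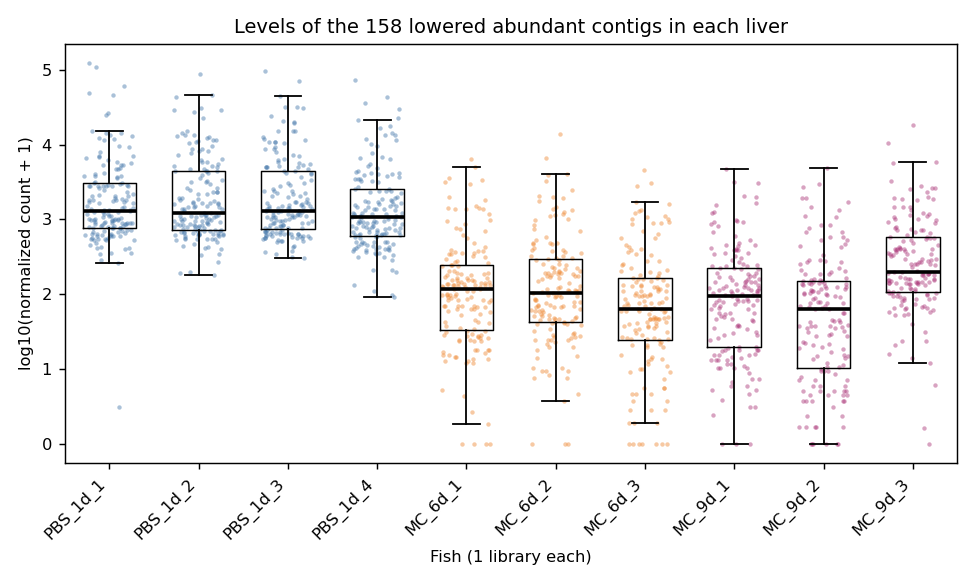
Level of each of the 158 contigs (points) in each liver, as log10 of the normalized count plus 1. Boxes show the quartiles over contigs, the line the median and the whiskers the most distant contig within 1.5 times the box. The boxes of the 4 PBS fish lie above those of all 6 exposed fish, and MC_9d_3 has the highest median of the exposed fish.

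The control levels of the contigs spanned a wide range, and a few contigs carried much of the sum. The mean over PBS fish ran from 517 to 84474 normalized counts with a median of 1257, and 95 contigs reached 1000 and 32 reached 5000. The 5 most abundant held 33.7% of the summed PBS level and the 10 most abundant 49.6%. These are counts per contig and not per length, so they order contigs by reads and not by molecules.

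The median remaining level was 5.86% on day 6 (range 0 to 44.5%) and 8.76% on day 9 (0.253 to 44.8%). The corresponding median log2 ratios were -4.09 and -3.51, with the 2 contigs that had no read on day 6 set to a floor of 3 reads over the group. No contig kept more than 50% of its PBS mean on either day. On both days, 133 contigs were under 25% and 49 were under 5% of the PBS mean. By clean reads 110 and 26 contigs were, and without MC_9d_3 135 and 66 were. Fish by fish, the median remaining level was 5.69, 7.01 and 4.09% on day 6 and 4.88, 2.31 and 15.7% on day 9. Without MC_9d_3 the median of day 9 was 3.49%, below that of day 6.

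On day 6, every exposed fish was below every PBS fish in 158 of the 158 contigs, where 64.3% of the 2075 contigs of both tables showed this. On day 9 this held for 154 contigs, against 63.8% of the 2075. Without MC_9d_3 it held for 157, a count without a share of other contigs beside it. The 2075 also hold raised contigs, which cannot show this. Of the 1346 contigs lowered on both days, which include the 158, 1335 showed it on day 6 and 1323 on day 9. Since the choice of the contigs used these contrasts, nothing is read from the counts. In TRINITY_DN84173_c1_g1_i9, MC_9d_3 reached 163 normalized counts against 90.9 in PBS_1d_4. In TRINITY_DN79516_c8_g1_i5, MC_9d_3 reached 181 against 133 in PBS_1d_4, and in TRINITY_DN110838_c5_g2_i2 it reached 191 against 178 in PBS_1d_2. The fourth exception, TRINITY_DN110242_c8_g1_i7, had almost no reads in 1 control and is described with the contigs that varied among PBS fish.

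The 5 most abundant contigs were all lowered to under 11% of their PBS mean on both days. The level of TRINITY_DN92810_c0_g1_i18 was 122733, 88816, 96243 and 30106 normalized counts in PBS_1d_1 to PBS_1d_4, 6334, 13991 and 2832 in MC_6d_1 to MC_6d_3 and 3166, 1943 and 18537 in MC_9d_1 to MC_9d_3. All exposed fish were below all PBS fish, with PBS_1d_4 the lowest control and MC_9d_3 the highest exposed fish. Its mean was 10.9-fold lower than in PBS fish on day 6 and 10.7-fold lower on day 9. The near equal means rest on MC_9d_3, without which the remaining level of day 9 fell from 9.33% to 3.02%.

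TRINITY_DN113448_c4_g2_i4, which Trinity placed in another cluster of contigs, followed almost the same course. It stood at 59894, 43323, 44347 and 16430 in the PBS fish, at 3006, 6693 and 1212 on day 6 and at 1979, 771 and 10470 on day 9. Both the highest and the lowest fish of each group were the same as for TRINITY_DN92810_c0_g1_i18. The ratio of the counts of the pair lay between 1.60 and 2.52 in the 10 fish, with a median of 2.07, while the normalized counts of the contigs ranged 63.2-fold and 77.7-fold over the same fish. This pair was picked after its values were seen, and whether the contigs share sequence or reads was not tested.

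TRINITY_DN114603_c7_g3_i1 had 46446, 22662, 70695 and 22696 normalized counts in PBS fish, 3119, 4095 and 1004 on day 6 and 219, 581 and 2592 on day 9. Exposed fish did not overlap with PBS fish, while days 6 and 9 overlapped through MC_9d_3. Relative to the mean of their group, the fish of day 9 differed more in this contig (SD 113% of the mean) than those of day 6 (57.7%). Its remaining level was 6.74% on day 6 and 2.78% on day 9, or 0.985% on day 9 without MC_9d_3. The difference between the days was -1.28 ± 0.90 (SE) on the log2 scale and did not pass the test of all listed contigs (edgeR quasi-likelihood, adjusted p = 0.543).

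The other 2 of the 5 split the controls into pairs. TRINITY_DN64718_c0_g1_i5 stood at 109718 and 72798 normalized counts in PBS_1d_1 and PBS_1d_4, but at 5530 and 5481 in PBS_1d_2 and PBS_1d_3. Its exposed fish had 1379, 1990 and 569 on day 6 and 997, 159 and 1091 on day 9, each of them below the lowest PBS fish. Because PBS_1d_1 and PBS_1d_4 set the PBS mean, the 36.9-fold and 64.6-fold lower means of days 6 and 9 rest mainly on those controls.

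TRINITY_DN92740_c2_g3_i1 had the same pair of controls high, with 48715 and 43297 in PBS_1d_1 and PBS_1d_4 and 14238 and 12773 in PBS_1d_2 and PBS_1d_3. Its level was 758, 1182 and 339 on day 6 and 449, 120 and 2796 on day 9. Exposed fish again did not overlap with the controls, and MC_9d_3 was above all fish of day 6 while MC_9d_1 and MC_9d_2 were below MC_6d_1 and MC_6d_2. The mean was 39.2-fold lower on day 6 and 26.5-fold lower on day 9. Without MC_9d_3 the remaining level of day 9 fell from 3.77% to 0.957%. The ratio of the counts of these 2 contigs moved from 0.388 to 2.25 among the 10 fish, so they did not keep a fixed proportion as the pair described before did.

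**Figure D2:**
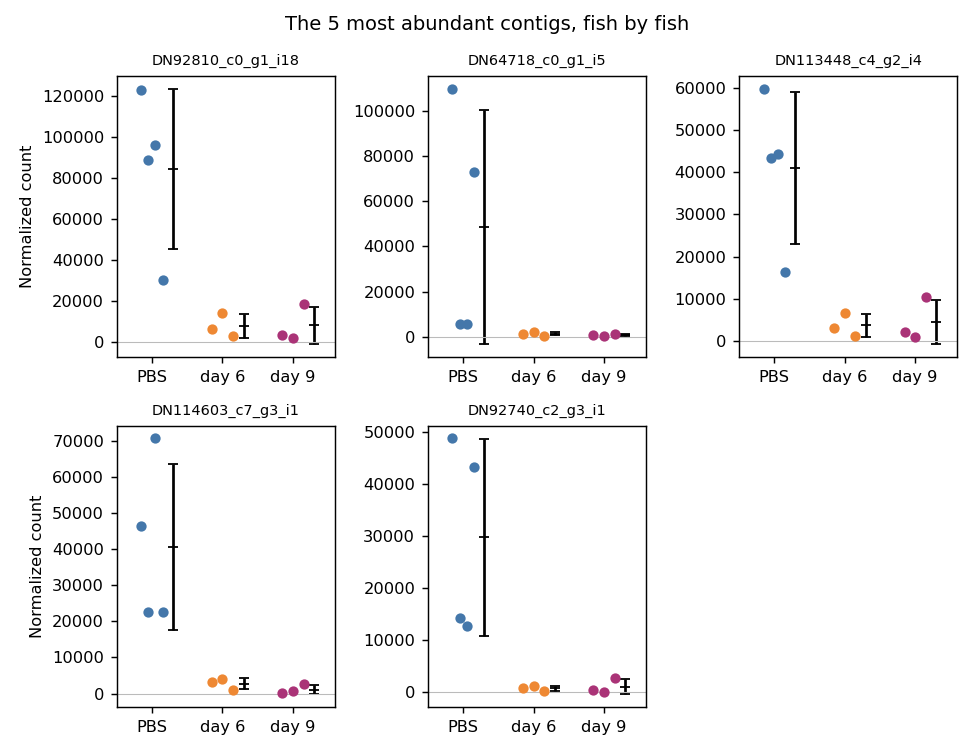
Normalized count of the 5 most abundant contigs in each liver, with 1 panel for each contig named without its TRINITY_ prefix. Points are fish in the order of their replicate numbers, and bars give the mean ± SD (4 PBS fish, 3 fish each of days 6 and 9). PBS_1d_1 and PBS_1d_4 stand high in DN64718_c0_g1_i5 and DN92740_c2_g3_i1, and MC_9d_3 is the highest exposed fish in DN92810_c0_g1_i18 and DN113448_c4_g2_i4.

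The depth of the lowering differed among contigs, and with it the spread among fish. Contigs were grouped by the mean of their remaining levels of days 6 and 9, with bounds of 5 and 25% that were set after the values were seen. The lowest group held 64 contigs, the middle group 81 and the highest group 13. Over the 64 contigs under 5%, the median remaining level was 2.26, 3.11 and 0.670% in the fish of day 6 and 0.849, 0.385 and 7.71% in those of day 9. MC_9d_3 was thus the highest exposed fish and MC_9d_2 the lowest in this group. Over the 81 contigs between 5 and 25%, the medians were 9.96, 10.5 and 8.41% on day 6 and 9.88, 10.1 and 20.9% on day 9. Here 5 of the 6 exposed fish lay close together and MC_9d_3 lay above them. Over the 13 contigs above 25%, the medians were 43.7, 34.2 and 38.6% on day 6 and 39.3, 37.5 and 40.4% on day 9, and MC_9d_3 did not stand apart.

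The coefficient of variation (SD over mean) on day 9 had a median of 130% in the lowest group, 44.0% in the middle group and 14.7% in the highest group. The same order was seen in the controls, where the medians were 44.9, 27.3 and 12.2%. The contigs that were lowered least were thus also those whose level differed least among fish, exposed or not. Contigs were listed by adjusted p, which a slightly lowered contig reaches only with a small spread among fish. The order is thus tied to the choice of the contigs, and nothing more is read from it. MC_9d_3 was the highest fish of day 9 in 61 of the 64 contigs, in 54 of the 81 and in 8 of the 13. In the lowest group its level was at the median 9.73 times the mean of the other 2 fish of day 9, in the middle group 1.78 times and in the highest group 1.09 times.

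**Figure D3:**
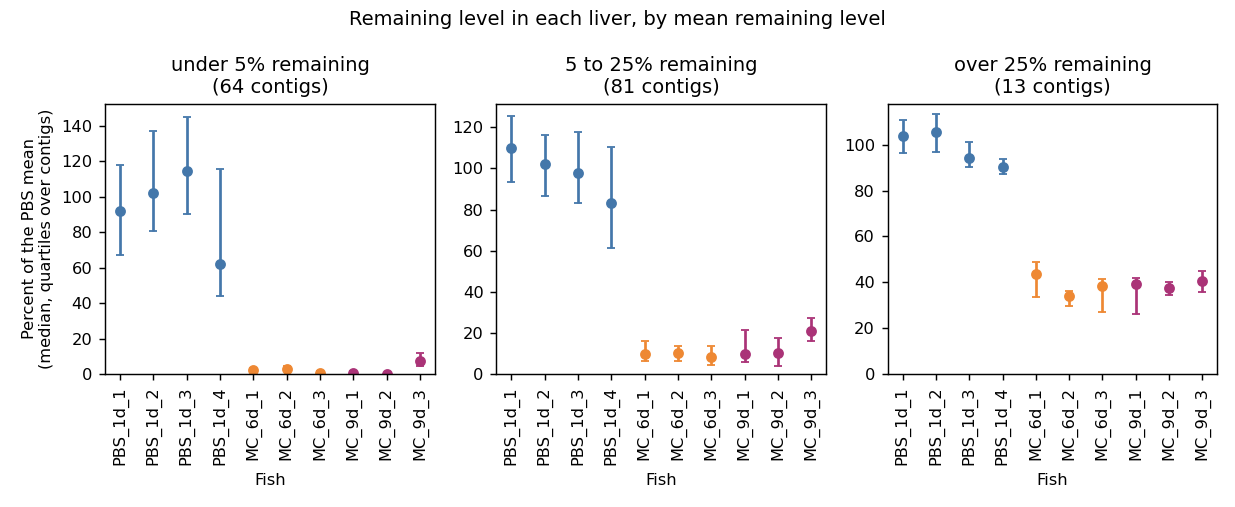
Level in each liver as a percent of the PBS mean of the same contig, for contigs with a mean remaining level under 5% (64 contigs), of 5 to 25% (81) and above 25% (13). Points are medians and bars quartiles over contigs, with an own axis from 0 in each panel. MC_9d_3 stands at 7.71, 20.9 and 40.4%, above the other exposed fish in the first and second panels and beside them in the third.

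Over all 158 contigs, MC_9d_3 was the highest fish of its day in 123, or 77.8%, where it was in 46.3% of the 2075 listed contigs. The 2075 also hold raised contigs, and among the 1346 contigs lowered on both days the share was 60.5%. By clean reads the count in the 158 was 130. In 32 of the 158 MC_9d_3 had more than 10 times the mean of MC_9d_1 and MC_9d_2, a count without a share of other contigs beside it. MC_9d_2 was the lowest fish of day 9 in 103 contigs (65.2% against 34.1% of all listed), MC_6d_3 the lowest of day 6 in 88 (55.7% against 25.4%) and PBS_1d_4 the lowest control in 86 (54.4% against 33.2%). For these 3 fish the share among lowered contigs alone is not given. The order of the fish within a group was thus shared by many of the contigs, but how far this is particular to the 158 was not tested.

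The contigs with the lowest remaining levels were all but lost from the exposed livers. TRINITY_DN92226_c4_g3_i1 had 453, 990, 373 and 681 normalized counts in PBS fish. In exposed fish it had 0.847, 6.55 and 1.82 on day 6 and 0, 0 and 11.1 on day 9, from 27 reads in all. All exposed fish were below all controls, and its only reads on day 9 were in MC_9d_3. Its mean was 203-fold lower on day 6 and 169-fold lower on day 9.

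TRINITY_DN98754_c1_g2_i1 had 528, 540, 774 and 446 in PBS fish, 0, 3.74 and 0 on day 6 and 0, 8.41 and 20.2 on day 9. At these levels single reads decide the exposed values, and 12 of the 158 contigs had no read in at least 1 exposed fish. In 2 contigs none of the 3 fish of day 6 had a read. TRINITY_DN113838_c9_g1_i3 was 1 of these, with 536, 194, 544 and 822 in PBS fish, 0 in each fish of day 6 and 2.17, 1.40 and 83.5 on day 9. Its level on day 6 was at least 585-fold lower than in PBS fish at the floor of 3 reads over the group, and its mean of day 9, 18.1-fold lower, came almost entirely from MC_9d_3, where 128 of its 133 exposed reads were counted.

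At the other end, 3 contigs kept the highest remaining levels and varied little. TRINITY_DN91860_c10_g1_i1 stood at 11769, 12076, 11552 and 10329 in PBS fish, at 5008, 3913 and 4541 on day 6 and at 4692, 4900 and 5760 on day 9. Exposed and control fish did not overlap, while days 6 and 9 did. Its remaining level was 39.3% on day 6 and 44.8% on day 9, with coefficients of variation of 6.70, 12.2 and 11.1% in PBS fish and on days 6 and 9. TRINITY_DN102657_c2_g3_i1 stood at 7008, 8240, 6999 and 6794 in PBS fish, at 3549, 2487 and 3083 on day 6 and at 3049, 3018 and 3313 on day 9. It was 2.39-fold and 2.32-fold lower, and the ratio of TRINITY_DN91860_c10_g1_i1 to it stayed between 1.41 and 1.74 in the 10 fish. TRINITY_DN93990_c3_g4_i2 had 1849, 1668, 1509 and 1398 in PBS fish, 860, 581 and 701 on day 6 and 677, 581 and 678 on day 9. Its remaining level of 44.5% was the highest of day 6, and on day 9 it was 40.2%.

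The control livers differed among themselves in many of these contigs. The coefficient of variation over the 4 PBS fish had a median of 33.7% over the 158 contigs (range 6.02 to 152%), beside 40.6% in the 758 less abundant contigs of the same course. The highest PBS fish was at the median 2.22 times the lowest, was under 2 times in 68 contigs and was over 10 times in 10. PBS_1d_2 and PBS_1d_3 were both above PBS_1d_1 and PBS_1d_4 in 45 contigs (28.5%, beside 19.5% of all listed), and the reverse held in 25 (15.8%, beside 14.7%).

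TRINITY_DN110242_c8_g1_i7 varied most, with 2.15, 7167, 1643 and 95.8 normalized counts in PBS_1d_1 to PBS_1d_4. No read was counted on day 6, and day 9 had 5.05, 11.2 and 0.652. The exposed fish of day 9 overlapped with PBS_1d_1, in which 2 reads were counted, so its lowering rests on the 3 other controls. TRINITY_DN110145_c6_g1_i1 had 984, 2362, 5017 and 17593 in PBS fish, 343, 94.5 and 123 on day 6 and 121, 88.3 and 410 on day 9. Its exposed fish lay below all controls although the controls spanned 17.9-fold.

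A pair of contigs of 1 Trinity component, chosen after their values were seen, had another order of the controls. TRINITY_DN111888_c7_g10_i1 had 3858, 11031, 15231 and 1085 in PBS fish and TRINITY_DN111888_c7_g2_i1 had 2961, 7701, 10839 and 799. Both were high in PBS_1d_2 and PBS_1d_3 and lowest in PBS_1d_4, and the ratio of the first to the second was 1.30 to 1.43 in the 4 controls. With the exposed fish included, the ratio ran from 0.414 to 1.84, so the contigs did not keep a fixed proportion. On day 9 they stood at 25.3, 8.41 and 523 and at 13.7, 20.3 and 582, so that MC_9d_3 exceeded the other fish of that day in both.

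Little spread among PBS fish was seen in TRINITY_DN99058_c0_g2_i3, with 1007, 1099, 1063 and 957. It had 266, 110 and 213 on day 6 and 352, 290 and 291 on day 9. Each fish of day 9 was above each fish of day 6, and the remaining level was 19.0% and 30.2%. TRINITY_DN105001_c6_g1_i7 was similar among controls, at 986, 919, 1009 and 882, with 320, 283 and 257 on day 6 and 251, 340 and 405 on day 9. Its days overlapped, at 30.2% and 35.0% of the PBS mean.

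The difference between day 9 and day 6 was not itself a criterion of the choice and was tested. The choice did require a listing and a lower mean on both days. Contigs back near the PBS level on day 9 were thus left out, which limits the differences that could be found. The test asks whether levels differed after the second injection and 3 more days, which the design does not separate. No contig passed: by edgeR's quasi-likelihood test over the 2075 contigs, 0 of the 158 were higher and 0 were lower on day 9 at an adjusted p under 0.05, where 0.0% of all contigs were called in each direction, and the smallest adjusted p was 0.188. At an unadjusted p under 0.05, 18 contigs (11.4%) were higher and 4 (2.53%) lower, beside 9.45% and 3.76% of the 2075. With DESeq2 as the alternative test, 9 (5.70%) were higher and 1 (0.633%) was lower, beside 2.75% and 1.49% of the 2075. The 2075 also hold raised contigs. Of the 1346 contigs lowered on both days, which include the 158, 188 were higher and 13 lower at the unadjusted p of edgeR. DESeq2 called 51 of the 1346 higher and 4 lower. Counts of the 2075 contigs were also simulated, with changes put into 200 contigs whose mean normalized count on day 6 reached a set minimum. There the edgeR test recovered 37% of 4-fold and 70% of 8-fold changes, so that many changes of that size would be missed with 3 fish a day. It also called 3 contigs into which no change was put. Each contig was drawn on its own, without an order of the fish shared by contigs as in these data. The shares recovered thus may not hold for these data or for contigs with almost no reads.

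The mean of day 9 was above that of day 6 in 123 of the 158 contigs and below it in 35. The median log2 difference of the contigs was 0.50, beside 0.21 over all 2075, which also hold raised contigs. It was larger in the most similar lists. The 1346 contigs lowered on both days had 0.66 and the 758 less abundant contigs of the same course 0.62. The 31 abundant contigs lowered on all 3 days had 2.13. Without MC_9d_3 the mean of day 9 was above that of day 6 in only 62 contigs, and the median difference turned to -0.36, beside 0.00 over all. The upward direction of most contigs thus depended on this 1 fish.

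In a smaller set the 3 fish of day 9 were each above the 3 fish of day 6, which does not rest on MC_9d_3 alone. This was so in 20 contigs (12.7%), beside 8.34% of the 2075. By clean reads it was so in 33, without a share of the 2075 at that scaling. That scaling alone raised day 9 against day 6 by 0.39 on the log2 scale. In the most similar lists, by the size factors, it was so in 144 of the 1346 contigs lowered on both days and 76 of the 758 less abundant ones. Of the 31 abundant contigs lowered on all 3 days, 7 had this order. The median remaining level of the 20 was 9.26% on day 6 and 21.7% on day 9. They include TRINITY_DN113838_c9_g1_i3 and TRINITY_DN110242_c8_g1_i7, which had no read on day 6, so that a few reads on day 9 set their order. In 5 contigs (3.16%, beside 7.95% of the 2075) each fish of day 9 was below each of day 6. By clean reads the count was 0, again without a share of the 2075 at that scaling. Of the 1346 contigs lowered on both days, 14 had each fish of day 9 below each of day 6.

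**Figure D4:**
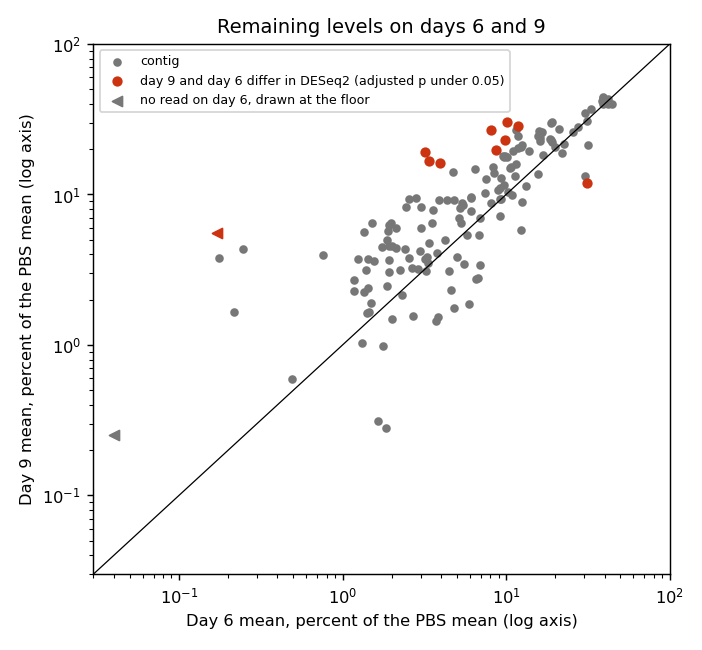
Mean level on day 9 against mean level on day 6, each as a percent of the PBS mean on a log axis, for the 158 contigs. Red marks the 10 contigs that DESeq2 called, of which edgeR called 0, triangles the 2 contigs without a read on day 6 (drawn at the floor of 3 reads) and the line equal levels. Most contigs, 123, lie above the line.

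The contigs with the smallest p in each direction did not pass the edgeR test. They were chosen by that p, so fish that separate between days 6 and 9 give no further support. TRINITY_DN105113_c1_g2_i10 had 2818, 1814, 1884 and 1760 normalized counts in PBS fish, 178, 174 and 150 on day 6 and 610, 472 and 577 on day 9. Its 3 groups did not overlap, with PBS_1d_1 set off above the other controls. It was 12.4-fold lower than in PBS fish on day 6 and 3.74-fold lower on day 9, a difference between the days of 1.72 ± 0.38 (SE) on the log2 scale (edgeR adjusted p = 0.188, DESeq2 adjusted p = 6.03e-07). Under the other 16 alternatives its adjusted p in edgeR was 0.0917 to 0.425.

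TRINITY_DN113381_c6_g2_i2 had 1439, 1638, 1601 and 1195 in PBS fish, 153, 172 and 123 on day 6 and 391, 424 and 530 on day 9. Again the groups did not overlap, and the level of day 9 lay between those of day 6 and PBS. The difference between days was 1.59 ± 0.36 (SE, log2; edgeR adjusted p = 0.191, DESeq2 adjusted p = 6.03e-07), from 10.2% to 30.5% of the PBS mean, and the adjusted p in edgeR was again 0.0917 to 0.425 over the alternatives.

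Among contigs lower on day 9, TRINITY_DN101109_c0_g1_i9 had 5291, 5138, 7166 and 3848 in PBS fish, 2002, 1924 and 1113 on day 6 and 525, 832 and 556 on day 9. No groups overlapped, and each fish of day 9 was below each of day 6. The remaining level went from 31.3% to 11.9%, a log2 difference of -1.40 ± 0.45 (SE; edgeR adjusted p = 0.246, DESeq2 adjusted p = 0.0124, and 0.169 to 0.484 over the other alternatives). TRINITY_DN107731_c4_g3_i1 had 945, 833, 674 and 574 in PBS fish, 167, 175 and 342 on day 6 and 56.3, 86.2 and 159 on day 9. Its remaining level was 30.1% and 13.3%, but neither edgeR (adjusted p = 0.322) nor DESeq2 (adjusted p = 0.154) called it.

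The 9 contigs that DESeq2 called higher came from 7 Trinity components, and in all 9 each fish of day 9 was above each of day 6. DESeq2 compared these same fish, so their order adds no support to the calls. Among the 9 contigs, TRINITY_DN113838_c9_g1_i3 (DESeq2 adjusted p = 0.00355) had no read on day 6 and most of its exposed reads in MC_9d_3. TRINITY_DN105113_c1_g1_i6, of the same component as TRINITY_DN105113_c1_g2_i10, had 382, 391 and 388 on day 6 and 859, 674 and 1176 on day 9, against 3038 to 4683 in PBS fish. TRINITY_DN84543_c0_g1_i5 had 41.5, 40.2 and 75.5 on day 6 and 80.8, 184 and 383 on day 9, against 1216 to 1501 in PBS fish. TRINITY_DN84543_c0_g1_i3 had 31.4, 23.4 and 46.4 on day 6 and 64.2, 101 and 335 on day 9, against 634 to 1446. TRINITY_DN105113_c1_g1_i6 and the pair of TRINITY_DN84543_c0_g1 were named after their values were seen. In that pair MC_9d_3 was the highest fish and contributed most to the mean of day 9.

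**Figure D5:**
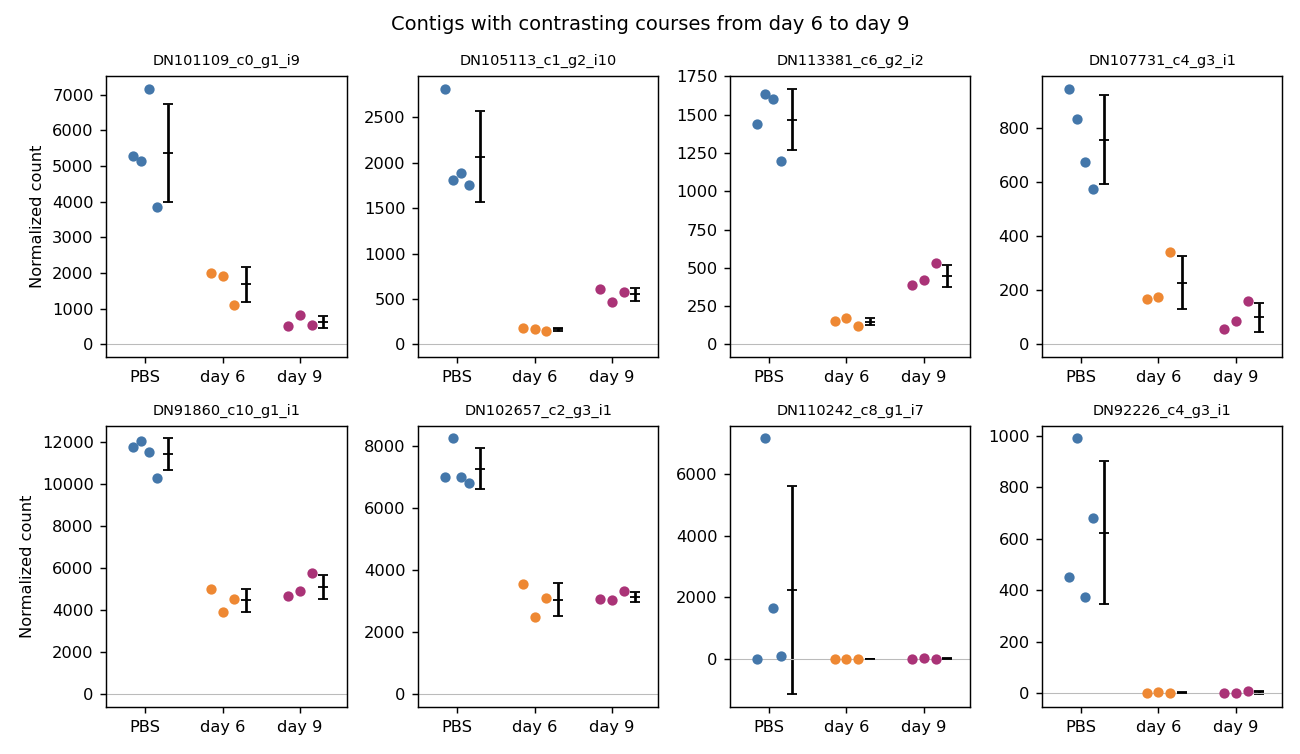
Normalized count in each liver of 8 contigs, named without the TRINITY_ prefix: 4 with the smallest p between days 6 and 9 in their direction (top) and 4 with high or very low remaining levels (bottom). Points are fish in the order of their replicate numbers, and bars give the mean ± SD (4 PBS fish, 3 fish a day). DN105113_c1_g2_i10 and DN113381_c6_g2_i2 were higher on day 9 than on day 6 in every fish, and DN101109_c0_g1_i9 and DN107731_c4_g3_i1 were lower in every fish, while edgeR called none of them.

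Trinity groups contigs that share sequence into components and genes, and contigs of 1 gene may be isoforms or alleles that share reads, so they are not independent. The 158 contigs came from 153 Trinity genes and 144 components, of which 13 components held 27 of the contigs. In 12 of the 13 components the contigs fell into the same group of remaining level, and in all 13 their means moved in the same direction from day 6 to day 9. The exception was TRINITY_DN99961_c0, whose contigs stood at 13.7% and 32.9% on day 6 and at 19.3% and 36.7% on day 9.

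TRINITY_DN106026_c1_g1 held 3 of the contigs. The contig i3 of this gene (TRINITY_DN106026_c1_g1_i3) had 1848, 3232, 6497 and 3221 in PBS fish, 85.6, 116 and 4.55 on day 6 and 16.6, 0.701 and 256 on day 9. Contig TRINITY_DN106026_c1_g1_i4 had 2066, 2961, 2875 and 1357 in PBS fish, 67.8, 53.4 and 19.1 on day 6 and 18.8, 2.80 and 293 on day 9. Contig TRINITY_DN106026_c1_g1_i2 had 1284, 1886, 2373 and 766 in PBS fish, 34.7, 23.4 and 9.10 on day 6 and 17.3, 0.701 and 159 on day 9. In each of them MC_6d_3 was the lowest fish of day 6, MC_9d_2 the lowest and MC_9d_3 the highest of day 9, and 1.42 to 4.53% of the PBS mean remained.

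TRINITY_DN102724_c5_g1 held 2 of the contigs and differed from it in its spread. TRINITY_DN102724_c5_g1_i4 had 1361, 1098, 1157 and 1380 in PBS fish, 156, 176 and 63.7 on day 6 and 249, 118 and 192 on day 9. TRINITY_DN102724_c5_g1_i2 had 722, 436, 604 and 504 in PBS fish, 102, 41.2 and 23.7 on day 6 and 144, 69.4 and 93.9 on day 9. Here MC_9d_1 was the highest fish of day 9 in both, and the days overlapped.

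Another 26 listed contigs belonged to the same Trinity genes as 29 of the 158. Of these, 24 were lower than in PBS fish on each day on which they were listed, 9 of them on day 6 alone, and 2 were listed as lower on day 1 as well. The remaining 2, TRINITY_DN112040_c1_g1_i13 and TRINITY_DN97560_c8_g1_i17, were higher than in PBS fish on days 6 and 9, against the direction of the contigs of the same gene.

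Nearest to the bound of 500 reads and just inside were TRINITY_DN88881_c3_g5_i2 (mean raw PBS count 502), TRINITY_DN100077_c4_g3_i1 (505) and TRINITY_DN113838_c9_g1_i3 (509), with remaining levels of 3.59, 4.76 and 0% on day 6 and 7.90, 14.2 and 5.54% on day 9. Just outside were TRINITY_DN97838_c0_g3_i16 (496), TRINITY_DN87210_c4_g1_i3 (485) and TRINITY_DN114181_c5_g1_i4 (481), with 31.6, 20.2 and 12.7% on day 6 and 31.0, 18.2 and 17.5% on day 9. Of the contigs inside, TRINITY_DN88881_c3_g5_i2 had 636, 722, 348 and 362 normalized counts in PBS fish, 12.7, 9.36 and 33.7 on day 6 and 33.2, 18.2 and 71.1 on day 9. TRINITY_DN100077_c4_g3_i1 had 411, 407, 905 and 384 in PBS fish, 23.7, 16.8 and 34.6 on day 6 and 44.7, 77.1 and 102 on day 9. In both the exposed fish lay below all controls. At the other bound, no contig of this abundance was without reads in the 6 exposed fish, while TRINITY_DN110242_c8_g1_i7 and TRINITY_DN92226_c4_g3_i1 were nearest to it with 24 and 27 reads.

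The most similar lists are given beside the 158. The 758 contigs of the same course with fewer than 500 reads had a median remaining level of 4.40% on day 6 and 7.27% on day 9, and MC_9d_3 was the highest fish of day 9 in 61.3% of them. A further 87 contigs of that course, with a median PBS level of 16.3 normalized counts, had no read in the exposed fish. The 102 abundant contigs lowered on day 6 alone had a median of 6.85% on that day, near the 5.86% of the 158. The 31 abundant contigs lowered on all 3 days stood lower, at 1.02% on day 6 and 3.58% on day 9, and MC_9d_3 was the highest fish of day 9 in 80.6% of them. Among all 1346 contigs lowered on days 6 and 9 the medians were 3.01% and 5.76%. These lists share the same PBS fish, and differences between them were not tested.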

How the data were processed

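Liver libraries of 13 whitefish, part of a larger project, were available, and 10 of these fish (4 PBS_1d, 3 MC_6d, 3 MC_9d) enter here. The methods of the paper describe larger groups of fish than these. The authors trimmed reads with Trimmomatic 0.36, assembled them with Trinity, removed redundant and rare contigs, mapped the reads with Bowtie2 and counted reads per contig with SAMtools. No use of strand is described. The deposited counts are raw reads per contig. The deposited baseMean, a signal, is the authors' mean of counts divided by size factors of DESeq2 1.28.0. Contigs enter the tables at an adjusted p under 0.001. The authors' own log2 fold changes, standard errors, Wald statistics and p-values are also in the tables and were not used. No contig sequence was used, and 0 contig IDs matched the RefSeq gene table, so no gene names or positions are given.

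Size factors were recovered from the base means (largest relative error 6.11e-15), and those of day 9 were brought to the scale of day 6 through the PBS fish (factor 0.894). Clean reads per library, from the study, served as another scaling. Day 9 was compared with day 6 by edgeR 4.0.16 (quasi-likelihood, 3 groups, R 4.3.3) on the 2075 contigs of both later tables, with Benjamini-Hochberg adjustment over all of them. The SE printed with a log2 difference is the size of that difference divided by the square root of the F statistic of the edgeR test. All 2075 had been selected by the study against the same PBS fish. The procedure was tested on simulated data. DESeq2 1.42.0, TMM, median of ratios, the filter of edgeR, exposed fish only, the thresholds of the study, a replicate block and leaving out each fish were alternatives. A p-value measures only the spread between these fish.

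The contigs and lists were chosen with earlier results of these data known. Named contigs are the 5 with the highest PBS mean, the 2 with the smallest p per direction between days, the 3 with the lowest and the 3 with the highest remaining level, those next to the bounds of the rule, those of the 2 Trinity genes with most members (3 genes tied for the second place, and the first by contig ID was taken), and the 2 with the largest and the 2 with the smallest variation among PBS fish. Others are said to be chosen after their values were seen.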

Additional observations from a re-analysis of the deposited data

Results flagged for a closer look

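In 3 of the 26 named contigs, 1 of the 4 PBS fish stood apart from the other controls, with a gap to the nearest of them that exceeded Dixon's 95% critical value. TRINITY_DN105113_c1_g2_i10 reached 2818 normalized counts in PBS_1d_1 (gap 0.883 of the group's range). TRINITY_DN102657_c2_g3_i1 reached 8240 in PBS_1d_2 (0.852), and TRINITY_DN100077_c4_g3_i1 reached 905 in PBS_1d_3 (0.948). A different fish stood apart in each. Over all 158 contigs 9, or 5.70%, had such a control, and chance sets apart about 1 in 20 groups.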

How the results depend on the processing

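The edgeR count of 0 contigs higher and 0 lower on day 9 than on day 6 stood in the alternatives that were run with edgeR. These were TMM, clean reads, median of ratios, the expression filter, exposed fish only and each fish left out. The thresholds of the study are stricter than the main one, so the counts of 0 under them were fixed in advance. DESeq2 called 9 higher and 1 lower. The median log2 difference between days of 0.50 was 1.09 with TMM, 0.87 with clean reads and 0.14 with median of ratios, and ran from -0.36 (without MC_9d_3) to 0.75 with 1 fish left out. Deviations of same-numbered fish correlated at -0.24 to 0.12, which shows no pairing by replicate number but, with so few fish, cannot settle it. With the replicate block the counts were 0 and 0 and the median was 0.20.

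The median log2 level against PBS on day 6, -4.09, was -3.28 with TMM, -2.52 with median of ratios and -3.96 with clean reads, and on day 9, -3.51, it was -1.99 with TMM, -2.43 with median of ratios and -2.94 with clean reads. TMM and median of ratios assume that most listed contigs did not change, while all were listed because they differed. With 1 fish left out the medians ran from -4.43 to -3.87 on day 6 and from -4.84 to -3.22 on day 9. The count of contigs under 5% on both days fell from 49 to 26 with clean reads, an alternative chosen after the data were seen. Of 442 values of named contigs under alternatives, 438 kept their side of the threshold, 4 passed it with DESeq2 and 34 had the other sign, 9 of these without MC_9d_3. The tables hold only contigs the study called, and 3 fish a day limit the test to large changes.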
